A study of Mus musculus with 12 samples.

Results

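Peaks of the histone demethylases Jmjd2a and Jmjd2c at the start sites of noncoding RNA genes were examined in mouse leukaemia cells. A peak, a stretch of the genome where chromatin immunoprecipitation recovered more DNA than its surroundings, was taken when it lay within 1000 bp of its nearest start site and every RefSeq transcript named at that site was of the noncoding kind. MicroRNA genes were left out. The Jmjd2a list gave 177 such peaks of 8977 and the Jmjd2c list gave 174 of 10521. Together these were 351 of 19498 peaks, at 253 genes. The genes are called noncoding below, although the RefSeq gene table classes 25 of them as protein-coding. Within 1000 bp of a start site of any kind there were 6908 Jmjd2a and 9053 Jmjd2c peaks.

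The cells were granulocyte-macrophage progenitors transformed with the MLL-AF9 fusion (L-GMP), from lines established out of leukaemic mice, and all groups carried the conditional genotype Jmjd2a/b/cf/f;Rosa26::CreERT2 on a C57BL/6 background. OHT cells received 500 nM 4-hydroxytamoxifen for 96 hours, which switches on the Cre recombinase that deletes the floxed alleles, and Ctrl cells received none. All cells grew in RPMI with 20% FBS and 10 ng/ml IL-3. Of the 12 libraries, Jmjd2a and Jmjd2c each had 1 from OHT and 1 from Ctrl cells, and each of H3K9me3 and H3K36me3 had 2 from OHT and 2 from Ctrl cells. How many mice or lines stand behind them is not given in the labels. The files used hold 1 list of positions per protein, with no height, score or value per library, and whether libraries were pooled for them is not given. OHT against Ctrl, the histone marks and the deletion of the targeted genes were therefore not analysed here, the depth is unknown, and shares below carry exact 95% binomial intervals that cover counting error alone.

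Jmjd2a (Kdm4a) and Jmjd2c (Kdm4c) belong to a family of Jumonji-domain enzymes that remove methyl groups from lysines 9 and 36 of histone H3. Their paired Tudor domains can bind trimethylated lysine 4 of histone H3, a mark found at active start sites, and most such sites in mammals lie in stretches rich in the dinucleotide CpG. Long noncoding RNA (lncRNA) genes often start back to back with a coding gene from a shared promoter. Others stand alone, host small nucleolar RNAs in their introns or act as RNAs in the nucleus.

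The following RefSeq promoter windows (GRCm38.p6, the primary assembly of mm10) run from 250 bases before the start site to 50 after it and are written 5′ to 3′ in the direction of transcription, with every CpG in capitals. They were picked to show how CpG content ranged over starts with both proteins, with Jmjd2c alone and with Jmjd2a alone. The first pair belongs to lncRNA genes with both proteins that start back to back with a coding gene. Map2k3os lies at chr11:60931818-60932117 on the minus strand, has 30 CpG and starts 187 bp from Map2k3, a kinase of the p38 pathway. Smc2os lies at chr4:52438915-52439214 on the minus strand, has 19 CpG and starts 257 bp from Smc2, a core subunit of condensin.
Map2k3os: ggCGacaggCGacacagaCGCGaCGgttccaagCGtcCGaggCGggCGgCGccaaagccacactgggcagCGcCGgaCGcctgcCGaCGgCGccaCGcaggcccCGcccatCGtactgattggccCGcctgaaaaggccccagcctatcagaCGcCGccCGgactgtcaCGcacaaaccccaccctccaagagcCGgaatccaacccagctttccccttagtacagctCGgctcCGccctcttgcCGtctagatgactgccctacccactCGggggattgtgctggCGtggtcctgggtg
Smc2os: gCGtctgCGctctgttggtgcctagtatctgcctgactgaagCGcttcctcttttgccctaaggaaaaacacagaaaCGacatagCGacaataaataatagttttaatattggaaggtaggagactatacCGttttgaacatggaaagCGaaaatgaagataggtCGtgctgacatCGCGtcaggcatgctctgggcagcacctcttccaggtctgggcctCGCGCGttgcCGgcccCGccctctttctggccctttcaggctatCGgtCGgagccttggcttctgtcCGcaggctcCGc

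The next window, 1700028E10Rik at chr5:151368425-151368724 on the plus strand, also lay under both proteins, but the nearest coding start, that of Stard13, was 178482 bp away. It has 38 CpG, and 133 of its 300 bases lay under the Jmjd2a peak and all 300 under the Jmjd2c peak.
1700028E10Rik: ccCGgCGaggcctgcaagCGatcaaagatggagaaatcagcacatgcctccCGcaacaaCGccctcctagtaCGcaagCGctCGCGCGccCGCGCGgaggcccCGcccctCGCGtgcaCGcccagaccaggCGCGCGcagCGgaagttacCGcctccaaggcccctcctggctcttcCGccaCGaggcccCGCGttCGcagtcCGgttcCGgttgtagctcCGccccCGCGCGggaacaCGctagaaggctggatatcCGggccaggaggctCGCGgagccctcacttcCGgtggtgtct

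Starts with Jmjd2c alone are shown by Dleu2, Snhg3 and Lockd. Dleu2, at chr14:61682324-61682623 on the minus strand, hosts the microRNAs of the chronic lymphocytic leukaemia deletion region and has 29 CpG. Snhg3, at chr4:132353637-132353936 on the minus strand, hosts small nucleolar RNAs and has 16 CpG. Lockd, at chr6:134928842-134929141 on the plus strand, lies downstream of the cell cycle inhibitor gene Cdkn1b and has 13 CpG.
Dleu2: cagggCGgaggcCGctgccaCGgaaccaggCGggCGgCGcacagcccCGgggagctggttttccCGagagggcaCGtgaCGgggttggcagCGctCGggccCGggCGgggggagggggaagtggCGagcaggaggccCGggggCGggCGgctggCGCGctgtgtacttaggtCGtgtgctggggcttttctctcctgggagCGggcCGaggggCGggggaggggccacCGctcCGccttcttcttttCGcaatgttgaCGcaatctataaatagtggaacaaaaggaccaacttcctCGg
Snhg3: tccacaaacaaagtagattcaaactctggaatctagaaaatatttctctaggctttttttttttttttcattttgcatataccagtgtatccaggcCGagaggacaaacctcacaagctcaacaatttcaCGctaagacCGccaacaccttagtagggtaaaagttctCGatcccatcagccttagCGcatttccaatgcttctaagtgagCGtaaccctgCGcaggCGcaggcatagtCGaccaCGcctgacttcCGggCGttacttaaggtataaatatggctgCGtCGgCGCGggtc
Lockd: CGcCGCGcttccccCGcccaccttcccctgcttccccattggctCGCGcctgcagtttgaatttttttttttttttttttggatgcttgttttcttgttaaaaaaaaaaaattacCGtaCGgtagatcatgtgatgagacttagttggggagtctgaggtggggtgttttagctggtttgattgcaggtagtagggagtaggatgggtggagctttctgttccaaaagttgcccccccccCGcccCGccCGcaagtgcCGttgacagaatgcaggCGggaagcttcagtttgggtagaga

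Starts with Jmjd2a alone are shown by 2 little-studied lncRNA genes. C920009B18Rik, at chr10:22306532-22306831 on the plus strand, has 3 CpG and a TATAAA box shortly before the start site, and 4930578M01Rik, at chr15:98985715-98986014 on the plus strand, has 11 CpG. All 300 bases of either window lay under the Jmjd2a peak and none under a Jmjd2c peak.
C920009B18Rik: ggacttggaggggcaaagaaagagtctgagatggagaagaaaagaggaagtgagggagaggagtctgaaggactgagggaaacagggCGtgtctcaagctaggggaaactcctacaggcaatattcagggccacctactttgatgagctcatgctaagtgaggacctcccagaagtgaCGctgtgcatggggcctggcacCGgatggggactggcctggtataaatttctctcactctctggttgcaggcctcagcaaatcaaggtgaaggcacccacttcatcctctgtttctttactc
4930578M01Rik: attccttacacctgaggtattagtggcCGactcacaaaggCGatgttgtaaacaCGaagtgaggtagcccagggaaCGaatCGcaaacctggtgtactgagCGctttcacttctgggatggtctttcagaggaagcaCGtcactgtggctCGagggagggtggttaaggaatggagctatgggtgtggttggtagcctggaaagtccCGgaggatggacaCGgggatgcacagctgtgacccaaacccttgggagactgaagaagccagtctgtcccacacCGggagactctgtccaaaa

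Most of the peaks marked lncRNA genes. By the RefSeq gene table, lncRNA genes held 139 of the 177 Jmjd2a peaks (78.5%, interval 71.7 to 84.3). For Jmjd2c they held 134 of 174 (77%, 70 to 83). Pseudogenes took 18 Jmjd2a and 21 Jmjd2c peaks. Another 20 Jmjd2a and 17 Jmjd2c peaks lay at genes that this table classes as protein-coding, such as the transcription factor genes Creb5 and Patz1, where the deposited annotation names a noncoding transcript at the start site. For these the noncoding label holds for the transcript named and not for the gene. Genes that the table classes as small RNAs were the site of 2 Jmjd2c peaks, Terc and Snord1c. None of the 177 Jmjd2a peaks had that class, which allows a share of up to 2.06%, but the table counts the structural RNA gene Vaultrc5, which had a Jmjd2a peak, among the lncRNA genes. The Snord1c peak, of 845 bp, has the width of a Jmjd2c peak 22 bp from the start of the small RNA host gene Snhg16. It may be the same peak.

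The noncoding starts fell into 2 main settings, paired with a coding start or far from one. A start was called head to head when the nearest coding start lay upstream of it within 1000 bp on the opposite strand, so that the genes run apart from each other. This setting held 41 of the Jmjd2a peaks (23.2%, 17.2 to 30.1), while for Jmjd2c it held 21 (12.1%, 7.63 to 17.9). At the 58 head-to-head genes the median distance between the noncoding and the coding start was 207 bp, with a range of 8 to 919 bp. Coding neighbours included the corepressor gene Sin3a, 74 bp from Gm10658, the P-TEFb cyclin gene Ccnt2, 110 bp from 2900009J06Rik, the histone chaperone gene Daxx, 267 bp from BC051226, and the condensin gene Ncapg, 217 bp from 1600023N17Rik. Coding starts were over 10000 bp away for 78 Jmjd2a peaks (44.1%, 36.6 to 51.7), and in the Jmjd2c list for 90 (51.7%, 44 to 59.4). The 105 genes in that setting had a median distance to the nearest listed coding start of 38385 bp. Of the rest, 21 Jmjd2a and 27 Jmjd2c peaks had a coding start between 1000 and 10000 bp away, 9 Jmjd2a and 7 Jmjd2c peaks lay at starts that overlap a coding gene on the opposite strand, and 1 peak of each list lay beside a coding start on the same strand. The same-strand starts, named Gm13363 and Gm7367, lie outside the RefSeq positions of these pseudogenes. Whether they are noncoding starts is therefore not certain. No position was given to 7 Jmjd2a and 11 Jmjd2c peaks, because a strand was missing or a coding gene without a listed start lay close by.

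**Figure D1:**
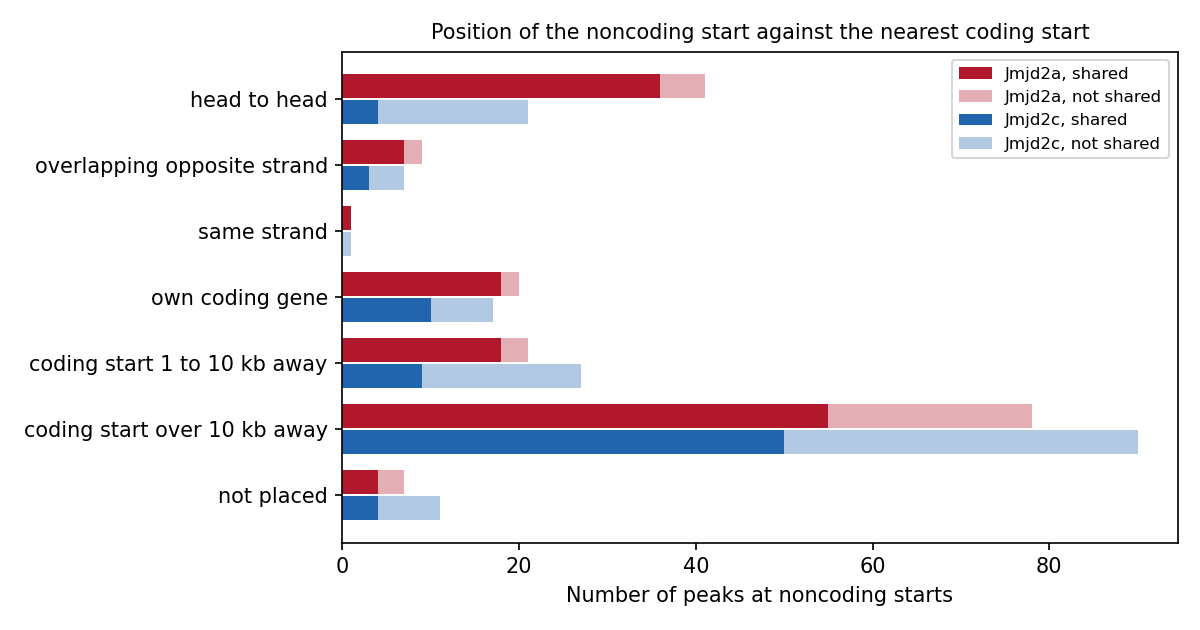
Number of Jmjd2a (red) and Jmjd2c (blue) peaks at noncoding starts by the position of the nearest coding start, with the part that overlaps a peak of the other protein in full colour and the rest in pale colour. Head-to-head starts held 41 Jmjd2a peaks, of which 36 were shared, and 21 Jmjd2c peaks, of which 4 were shared.

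Counted from the peak rather than the start, a coding start lay within 1000 bp of 80 Jmjd2a peaks (45.2%, 37.7 to 52.8), own genes included. For Jmjd2c this was so in 46 cases (26.4%, 20.1 to 33.6). The rule takes part in this difference, since a peak that covers both starts of a pair names a coding transcript too and is left out, and Jmjd2c peaks were wider. With coding starts named in the deposited files alone, the shares were 35.6% for Jmjd2a and 13.2% for Jmjd2c.

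Overlap with the other protein was less frequent at noncoding starts than over all peaks near a start. Of the 177 Jmjd2a peaks, 139 shared 1 bp or more with a Jmjd2c peak (78.5%, 71.7 to 84.3), against 86.9% of all Jmjd2a peaks within 1000 bp of a start. Of the 174 Jmjd2c peaks, 80 did so with a Jmjd2a peak (46%, 38.4 to 53.7), against 61.6% of all Jmjd2c peaks within 1000 bp of a start. Without the noncoding-start peaks, the shares near a start were 87.1% for Jmjd2a and 61.9% for Jmjd2c. Peaks over 10000 bp from any start overlapped less often, in 28.1% of Jmjd2a and 40.6% of Jmjd2c peaks. The rule can take part in the lower shares, since wide peaks that reach a coding start are left out and shared peaks were wider. Where any rather than every transcript had to be noncoding, 86.8% of Jmjd2a and 57.5% of Jmjd2c peaks were shared. With no coding start within 1000 bp of the peak, 72.2% of Jmjd2a and 50% of Jmjd2c peaks were. The part of the rule was not tested. The shares changed with width. Among the wider 50% of the list, 37 of 51 Jmjd2c peaks at noncoding starts were shared (72.5%, 58.3 to 84.1), against 68.1% of all near-start peaks in that part, which lies inside the interval. For Jmjd2a the same part gave 61 of 73 (83.6%, 73 to 91.2), against 90.8%.

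**Figure D2:**
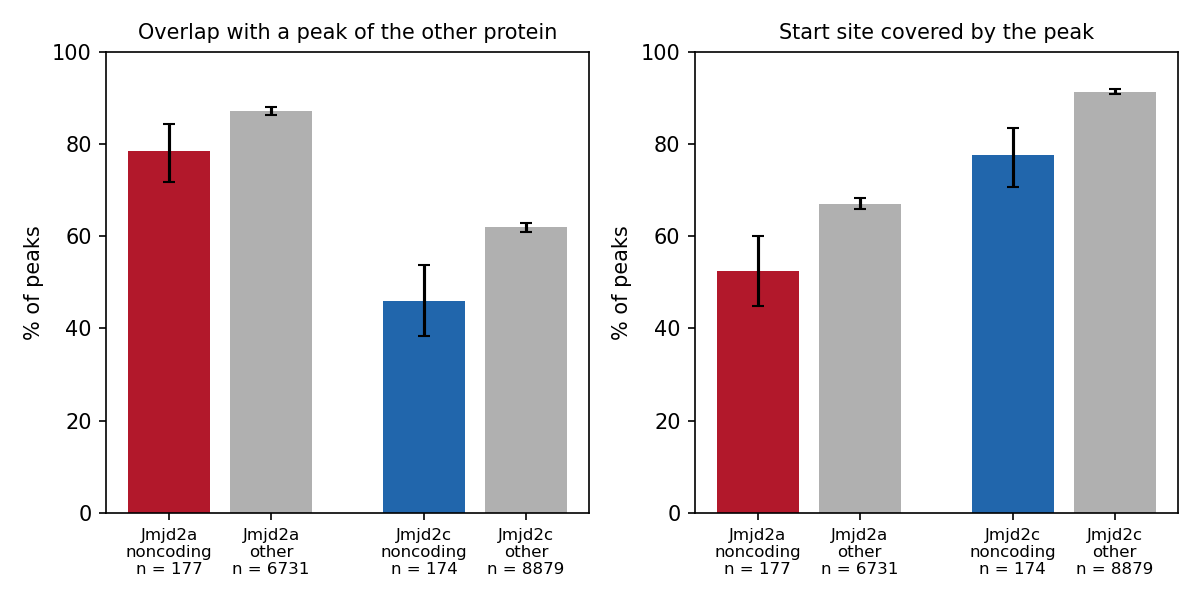
Percentage of peaks that overlap a peak of the other protein (left) and that cover the start site (right), for peaks at noncoding starts (coloured) and the other peaks within 1000 bp of a start (grey). Bars are shares with exact 95% binomial intervals, and the noncoding bars lie below the grey ones in each pair, with 78.5% against 87.1% for Jmjd2a overlap and 46% against 61.9% for Jmjd2c overlap.

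Many Jmjd2c partners of Jmjd2a peaks were themselves not at a purely noncoding start. Of the 139 shared Jmjd2a peaks, 86 met a Jmjd2c peak that was itself at a noncoding start and 52 met one whose named site held a coding transcript. At head-to-head starts, 36 of 41 Jmjd2a peaks were shared (87.8%, 73.8 to 95.9), and for 32 of the 36 the named site of the Jmjd2c partner held a coding transcript. The Jmjd2c peaks that the rule left at head-to-head starts were shared in 4 of 21 cases (19%, 5.45 to 41.9), as 0610009L18Rik beside the gamma-actin gene Actg1 shows, where a Jmjd2c peak of 1925 bp had no Jmjd2a peak within 1000 bp. Far from coding starts the shares were closer to each other, with 55 of 78 in the Jmjd2a list (70.5%, 59.1 to 80.3) and 50 of 90 in the Jmjd2c list (55.6%, 44.7 to 66). Each of the 80 shared Jmjd2c peaks had a partner at a noncoding start. When overlap had to span 50% or more of the shorter peak, the counts were the same in both lists.

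Fewer noncoding starts were covered by their peak. The start lay inside 93 of 177 Jmjd2a peaks (52.5%, 44.9 to 60.1), against 66.7% of all near-start Jmjd2a peaks and 67% of those at other starts. It lay inside 135 of 174 Jmjd2c peaks (77.6%, 70.7 to 83.5), against 91% of all and 91.3% of the other near-start Jmjd2c peaks. The rule takes part in this, since a peak that covers a noncoding and a coding start is left out. Where any rather than every transcript had to be noncoding, 69.6% of Jmjd2a and 92.3% of Jmjd2c peaks covered the start. With no coding start within 1000 bp of the peak, 54.6% of Jmjd2a and 78.9% of Jmjd2c peaks did. The part of the rule in the difference was not tested. Peak centres lay mostly downstream of the start. Centres were not counted for the other near-start peaks, so whether this is particular to noncoding starts is not known. The median centre was 193 bp downstream for 176 Jmjd2a peaks with a known strand, of which 121 lay downstream (68.8%), and 152 bp downstream for 165 Jmjd2c peaks, of which 128 lay downstream (77.6%). At head-to-head starts 38 of 41 Jmjd2a centres lay downstream, at a median of 272 bp. The rule takes part in that count, because a peak displaced towards the coding start would be named after it.

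Far from coding starts the median centre lay nearer to the start. The median centre was 106 bp downstream for the 78 Jmjd2a peaks and 110 bp downstream for the 90 Jmjd2c peaks, 85 of them with a known strand. Over the 104 starts in this setting that have a strand, Jmjd2a peaks covered 50% of starts at 150 bp downstream, 41.3% at the start itself and 21.2% at 500 bp upstream. Jmjd2c peaks covered 73.1% at 100 bp downstream, 71.2% at the start and 41.3% at 500 bp upstream. Over the 58 head-to-head starts, Jmjd2a peaks covered 62.1% at 150 bp downstream, 37.9% at the start and 27.6% at 500 bp upstream, which is the side of the coding gene. Jmjd2c peaks there covered 89.7% at 200 bp downstream and 86.2% at 500 bp upstream.

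**Figure D3:**
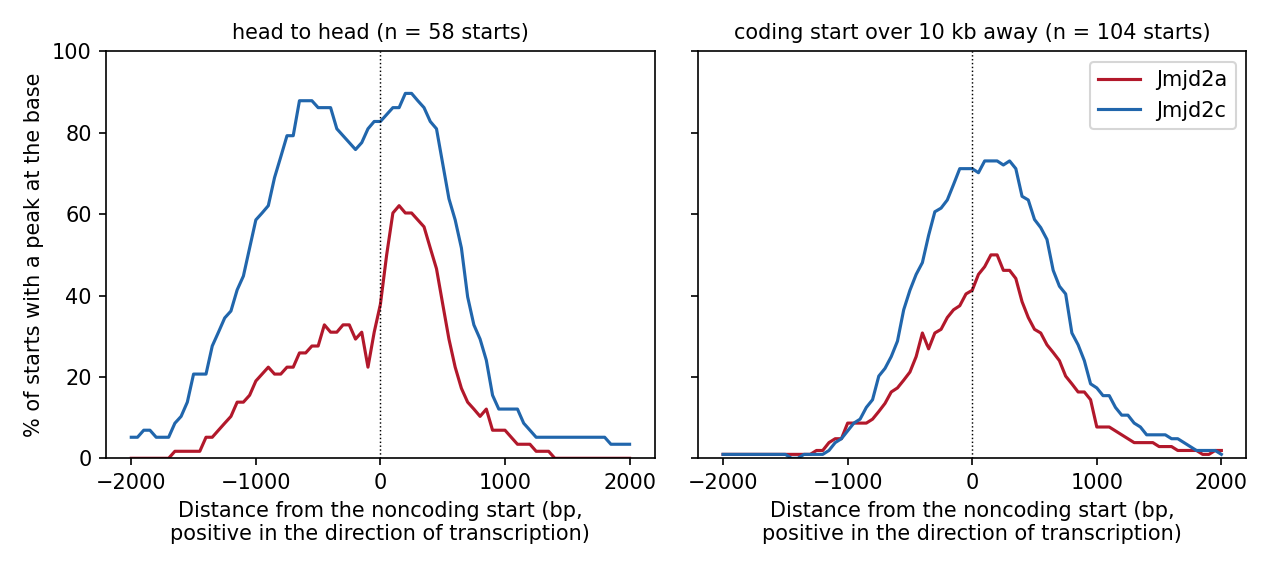
Percentage of noncoding starts with a peak at each base from 2000 bp upstream to 2000 bp downstream, for head-to-head starts (left, n = 58) and starts with the nearest coding start over 10 kb away (right, n = 104), with Jmjd2a in red and Jmjd2c in blue. At head-to-head starts the Jmjd2a line is highest at 150 bp downstream, with 62.1%, and has a lower shoulder on the coding side, while the Jmjd2c line stays high on both sides, with 86.2% at 500 bp upstream.

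Peaks at noncoding starts were narrower than other near-start peaks. The median width was 652 bp for Jmjd2a (interval 590 to 702, quartiles 475 and 875, range 277 to 2025), against 766 bp for the other near-start Jmjd2a peaks. For Jmjd2c it was 1057.5 bp (interval 988 to 1126, quartiles 798 and 1391.2, range 227 to 4560), against 1374 bp. Wide peaks that reach a coding start are left out by the rule, so part of this is fixed by it. With no coding start within 1000 bp of the peak, the medians were 700 bp for 97 Jmjd2a peaks and 1084 bp for 128 Jmjd2c peaks. Shared peaks were wider than unshared ones, with medians of 665 bp shared and 540 bp unshared for Jmjd2a, and of 1215.5 bp shared and 919 bp unshared for Jmjd2c. The same order was seen in the other near-start peaks, with 796 bp shared and 621 bp unshared for Jmjd2a, and 1427 bp shared and 1259 bp unshared for Jmjd2c.

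By gene, 147 of the 253 noncoding genes (58.1%, 51.8 to 64.3) had a peak of both proteins within 1000 bp of the start, 76 had Jmjd2c alone and 30 had Jmjd2a alone. The gene was named by peaks of both lists for 82 genes, by Jmjd2a peaks alone for 87 and by Jmjd2c peaks alone for 84. Both proteins were found at 43 of 58 head-to-head genes (74.1%, 61 to 84.7) and at 54 of 105 genes far from coding starts (51.4%, 41.5 to 61.3). By class, both were found at 113 of the 201 lncRNA genes (56.2%, 49.1 to 63.2) and at 18 of the 25 classed as protein-coding. For all 2675 lncRNA genes of the RefSeq promoter table with a curated transcript, 15.7% had Jmjd2a, 21.9% had Jmjd2c and 13.4% had both within 1000 bp. For the 16853 coding genes the shares were 33.2% with Jmjd2a, 46.4% with Jmjd2c and 29.9% with both. Each of the 253 genes was chosen for having a peak, whereas these wider sets include genes with none. The 58.1% is therefore not comparable with their shares of both. By count, 358 lncRNA genes had both, beside 420 with Jmjd2a and 585 with Jmjd2c. Of the coding genes, 5031 had both, beside 5599 with Jmjd2a and 7816 with Jmjd2c. Of the 420 lncRNA genes with Jmjd2a in that table, 116 were named by a peak of the set described here, and of the 585 with Jmjd2c 103 were.

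Where both proteins were present, the Jmjd2c peak was the wider in 128 of 147 genes (87.1%), with median widths of 1432 bp for Jmjd2c and 664 bp for Jmjd2a. Far from coding starts this held at 39 of 54 genes, with medians of 1259 bp for Jmjd2c and 732 bp for Jmjd2a. Head to head it held at 41 of 43 genes, with 1650 bp for Jmjd2c and 562 bp for Jmjd2a. Across all near-start peaks the median width was 1366 bp for Jmjd2c and 761 bp for Jmjd2a, the same order as at the 147 noncoding genes. Gm10789 and 2610035D17Rik were among the exceptions. Jmjd2a covered 2025 bp and Jmjd2c 1995 bp at Gm10789, and Jmjd2a covered 941 bp and Jmjd2c 547 bp at 2610035D17Rik.

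**Figure D4:**
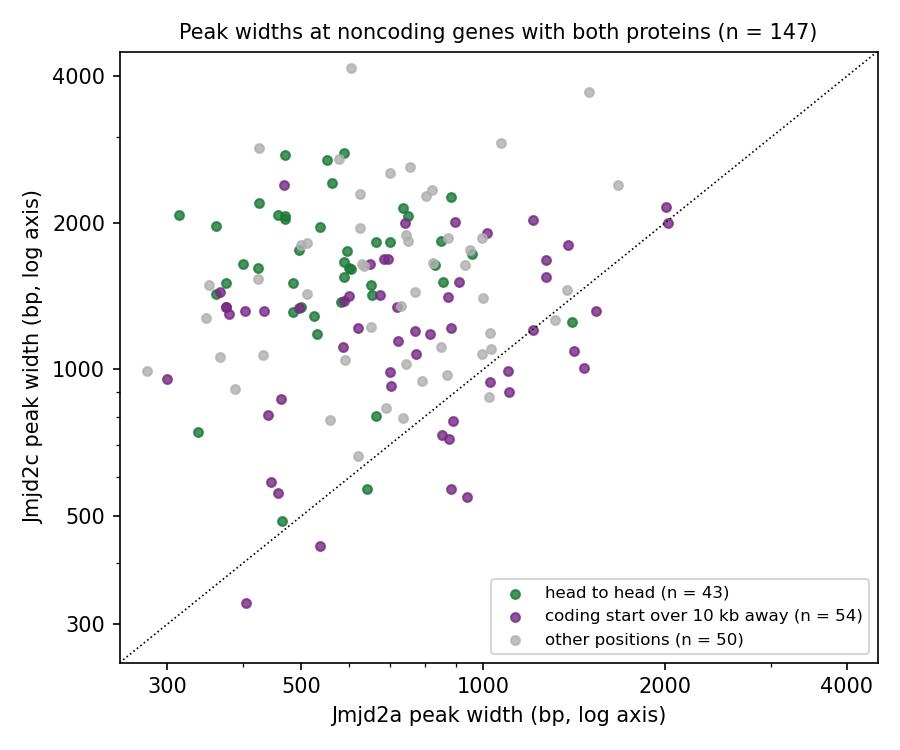
Width in bp of the Jmjd2a peak (horizontal, log axis) and of the Jmjd2c peak (vertical, log axis) at each of the 147 noncoding genes with both proteins, coloured by the position of the nearest coding start, with equal widths on the dotted line. In 128 genes the point lies above the line, and the head-to-head genes (green) have medians of 1650 bp for Jmjd2c and 562 bp for Jmjd2a.

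Of 21 matched genes that host small nucleolar RNAs in their introns, 10 had a Jmjd2c peak within 1000 bp of the start, 5 a Jmjd2a peak and 4 both. Jmjd2c was also the more frequent over all lncRNA genes, at 21.9% against 15.7% for Jmjd2a and 13.4% for both, and no difference between a list and these shares was tested, here or in the lists that follow. Jmjd2c alone lay over the starts of Snhg3 (1438 bp), Snhg10 (1293 bp), Snhg12 (1395 bp) and Snhg17 (1269 bp), and over that of Snhg1 (1554 bp), whose peak did not meet the rule. Snhg11 went the other way, with a Jmjd2a peak of 522 bp over its start that did not meet the rule and no Jmjd2c peak within 13818 bp. Dancr, a lncRNA known to hold back differentiation, had a Jmjd2c peak of 1319 bp over its start and a Jmjd2a peak of 403 bp that ended 171 bp before it. Snhg20 had a Jmjd2c peak of 1302 bp over the start and a Jmjd2a peak of 380 bp 27 bp away. Gas5, a lncRNA that accumulates in growth arrest, was covered by both, at 1182 bp for Jmjd2c and 675 bp for Jmjd2a, though neither peak met the rule. Epb41l4aos had Jmjd2c over 1649 bp and Jmjd2a over 631 bp.

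Catalytic and structural RNAs had 4 genes with Jmjd2c and 2 with Jmjd2a of 10, and none with both, where all lncRNA genes gave 21.9% with Jmjd2c, 15.7% with Jmjd2a and 13.4% with both. Terc, the RNA template of telomerase, lay inside a Jmjd2c peak of 994 bp (chr3:96414002-96414995), and the nearest Jmjd2a peak was 5198 bp away. Vaultrc5, an RNA of the vault particle transcribed by RNA polymerase III, had its start inside a Jmjd2a peak of 450 bp that lay mostly upstream of the gene, and the nearest Jmjd2c peak was 7287 bp away. Rmrp (878 bp), Rpph1 (650 bp) and Rny3 (574 bp) had Jmjd2c peaks within 1000 bp of a gene end, and Rn7sk, the RNA that holds P-TEFb inactive, had a Jmjd2a peak of 443 bp. These last 4 were placed by their gene ends, since no start with a strand was listed, and none belongs to the set.

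Nuclear, X-linked and imprinted lncRNAs showed Jmjd2c at 7 of 17 genes and Jmjd2a at 2, both of which also had Jmjd2c, against 21.9% with Jmjd2c and 15.7% with Jmjd2a over all lncRNA genes. Norad, which binds Pumilio proteins in the cytoplasm and guards genome stability, is counted in this list although its name does not describe it. It had Jmjd2c over 989 bp and no Jmjd2a within 82498 bp. Firre, an X-linked RNA that organises contacts between chromosomes, had Jmjd2c over 1269 bp. Ftx, an RNA of the X-inactivation centre, had a Jmjd2c peak of 377 bp 151 bp from its start. The imprinted Peg13 and Gnasas1 (Nespas) starts were covered by Jmjd2c peaks of 488 and 1053 bp, without Jmjd2a. Airn, the imprinted antisense RNA of the Igf2r locus, had both, a Jmjd2c peak of 557 bp over the start and a Jmjd2a peak of 457 bp 110 bp beyond it. Tug1, a widely expressed nuclear lncRNA, had a Jmjd2a peak of 875 bp 91 bp away and a Jmjd2c peak of 1864 bp that covered another of its listed starts. No peak of either protein lay within 1000 bp of Malat1, Neat1, Xist, Tsix, Jpx, Miat, Meg3, H19, Kcnq1ot1 or Rian.

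Among oncogene, p53 and growth lncRNAs, 3 of 8 had Jmjd2c and none had Jmjd2a, to be read against the 21.9% with Jmjd2c and 15.7% with Jmjd2a over all lncRNA genes. Pvt1, the neighbour of Myc that is amplified with it in tumours, had Jmjd2c over 1409 bp (chr15:62037628-62039036). The nearest Jmjd2a peak was 52703 bp away. Dleu2 had Jmjd2c over 2164 bp (chr14:61681113-61683276), with the nearest Jmjd2a peak 4645 bp away. Oip5os1 (Cyrano), an RNA that drives the decay of miR-7, had Jmjd2c over 1037 bp. In the Hox clusters, 3 of 9 lncRNAs had Jmjd2c within 1000 bp of a start or gene end and 1 had Jmjd2a. The gene with Jmjd2a was Hotairm1, the myeloid lncRNA of the Hoxa cluster, with Jmjd2a over 1346 bp and Jmjd2c over 1933 bp. Hotairm1 and Hoxaas3 were placed by their gene ends, so the peaks there may mark either end of the gene. No peak of the set named a gene of this Hox list. Over all 5 lists, 27 of 65 genes had Jmjd2c, 10 had Jmjd2a and 7 had both. All lncRNA genes gave 21.9% with Jmjd2c, 15.7% with Jmjd2a and 13.4% with both. Those shares were counted at listed starts alone, while some list genes were placed by either gene end, so the counts are not like for like. The lists were chosen with earlier results of these data known.

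The widest Jmjd2c peak at a noncoding start, 4560 bp (chr6:134926667-134931226), lay over Lockd, whose RNA is made in erythroid cells and whose start is 8691 bp from that of Cdkn1b. No Jmjd2a peak lay within 8791 bp of it. The next were 6530402F18Rik with 2704 bp, 4833417C18Rik with 2392 bp, Gm11538 near Hoxb13 with 2200 bp and Dleu2. The widest Jmjd2a peaks were at Gm10789 (2025 bp, chr16:90142652-90144676) and G730013B05Rik (2009 bp, chr16:50528327-50530335), shared with Jmjd2c peaks of 1995 bp at Gm10789 and 2160 bp at G730013B05Rik, and both far from coding starts. Other wide Jmjd2a peaks were at 4930578M01Rik (1802 bp) and AW046200 (1675 bp), and that at AW046200 was shared. Antisense and opposite-strand genes with both proteins included Fbxl12os (Jmjd2a over 1273 bp, Jmjd2c over 1675 bp), Map2k3os (Jmjd2a 752 bp, Jmjd2c 2066 bp) and Smc2os (Jmjd2a 850 bp, Jmjd2c 1833 bp). Others were Rab10os (Jmjd2a 912 bp, Jmjd2c 1515 bp), Foxd2os (Jmjd2a 595 bp, Jmjd2c 1750 bp) and Rab11fip4os1 (Jmjd2a 1028 bp, Jmjd2c 944 bp).

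Jmjd2a without an overlapping Jmjd2c peak was seen at 38 of the 177 Jmjd2a peaks, and wide ones among them were at 4930578M01Rik near Tuba1a, C920009B18Rik (1655 bp), 1700067G17Rik (1061 bp) and Gm4598 (1025 bp). At C920009B18Rik the nearest Jmjd2c peak lay 156969 bp from the start and at 4930578M01Rik 32091 bp. The X chromosome held 4 of 177 Jmjd2a peaks (2.26%, 0.619 to 5.68), against 1.46% of near-start Jmjd2a peaks, and 11 of 174 Jmjd2c peaks (6.32%, 3.2 to 11), against 3.04%. The background shares lay inside the interval for Jmjd2a and just below it for Jmjd2c.

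Close to the distance limit, the Jmjd2a peaks just inside it were 0610012G03Rik at 943 bp and Micos10 (Minos1 in the deposited list) at 859 bp, and those just outside were 4833411C07Rik at 1013 bp and Efcab8 at 1123 bp. For Jmjd2c, Dlx1as at 942 bp and Gm5512 at 916 bp lay inside, and 5830417I10Rik at 1331 bp lay outside. The start named for Gm5512 lies outside the RefSeq position of that pseudogene. Few peaks sat near the limit, and 166 of the 177 Jmjd2a peaks and 169 of the 174 Jmjd2c peaks were within 500 bp.

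A promoter window within 100 bp of the named start was found in RefSeq for 136 Jmjd2a and 119 Jmjd2c peaks, 190 windows in all. Their median observed over expected CpG, a measure that is 1 where CpG is as frequent as its bases predict, was 0.791 (quartiles 0.595 and 0.924), against 0.245 over all 11588 lncRNA windows and 0.567 over all 21263 coding windows. Windows with a ratio of at least 0.6 and at least 55% G and C, called CpG-rich here, made up 120 of the 190 (63.2%, 55.9 to 70). The share was 10.7% over all lncRNA windows, 59.8% over the 1486 lncRNA windows with a peak of either protein within 1000 bp and 3.47% over the 10102 with none. Over coding windows with a peak of either protein it was 70.5%. The lncRNA windows with a peak include those at the noncoding lncRNA starts described here, and 59.8% lies inside the interval of 55.9 to 70. Some of the 190 windows belong to genes classed as protein-coding, such as Patz1, so the 190 are not all lncRNA windows.

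CpG content differed between noncoding genes with both proteins and those with 1 of them. Windows at noncoding genes with both proteins were CpG-rich in 87 of 112 cases (77.7%, 68.8 to 85), those with Jmjd2c alone in 26 of 53 (49.1%, 35.1 to 63.2) and those with Jmjd2a alone in 7 of 25 (28%, 12.1 to 49.4). All lncRNA windows gave 68.3% with both, 54.4% with Jmjd2c alone and 41.7% with Jmjd2a alone, and coding windows gave 74.4% with both, 65% with Jmjd2c alone and 63.6% with Jmjd2a alone. The intervals of the classes with 1 protein overlap at the noncoding genes, so no order between them is given. By position, 32 of 34 windows of head-to-head Jmjd2a peaks were CpG-rich (94.1%, 80.3 to 99.3), against 25 of 51 far from coding starts (49%, 34.8 to 63.4). For Jmjd2c the counts were 14 of 18 head to head (77.8%, 52.4 to 93.6) and 31 of 55 far away (56.4%, 42.3 to 69.7). These Jmjd2c intervals overlap. At head-to-head genes the median coding start lay 207 bp upstream, inside the stretch before the start that each window spans. Such windows can therefore take in the coding start too, and its part in their CpG content was not tested. Of the windows printed above, Map2k3os (0.892), Smc2os (0.891) and 1700028E10Rik (1.06) with both proteins had higher ratios than 4930578M01Rik (0.521) and C920009B18Rik (0.151) with Jmjd2a alone, while Snhg3 (1.02), Dleu2 (0.856) and Lockd (0.681) with Jmjd2c alone lay between 4930578M01Rik and 1700028E10Rik.

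**Figure D5:**
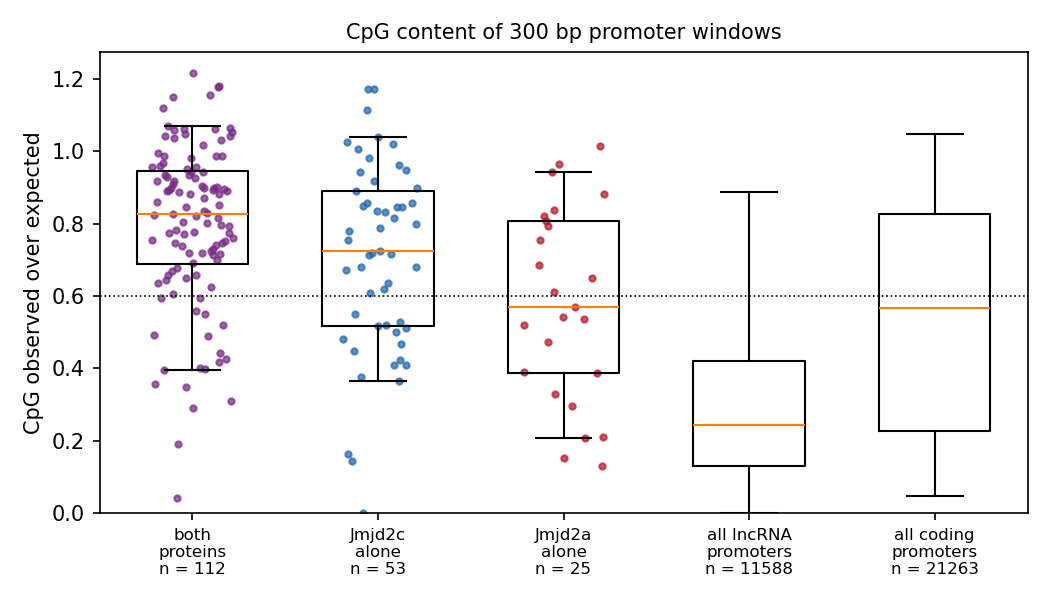
Observed over expected CpG in RefSeq promoter windows of 300 bp at noncoding genes with both proteins (n = 112), Jmjd2c alone (n = 53) and Jmjd2a alone (n = 25), beside all lncRNA and all coding promoter windows. Boxes give the quartiles and median, whiskers the 5th and 95th percentiles and points single windows, the dotted line marks 0.6, and the medians of the first 3 boxes are 0.828, 0.724 and 0.57.

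Short motifs were searched on both strands of the windows as exact letters. The GC box GGGCGG was present in 126 of the 190 windows (66.3%), against 35.7% of all 32851 windows and 57.5% of lncRNA windows with a peak. The ETS-type motif CCGGAAG was present in 18.4%, against 8.86% of all windows and 12.9% of lncRNA windows with a peak, and the E-box CACGTG in 16.8%, against 7.15% of all windows and 10.1% of lncRNA windows with a peak. The TATA box motif TATAAA was found in 5.26%, against 13.6% of all windows and 6.26% of lncRNA windows with a peak. CCAAT was present in 41.1%, against 37.4% of all windows and 32.6% of lncRNA windows with a peak. GCATGCG occurred in 7.37%, against 3.58% of all windows and 6.19% of lncRNA windows with a peak. GATGGCG occurred in 4.21%, above the 3.49% of all windows and below the 5.92% of lncRNA windows with a peak. A first transcribed base C opening a run of at least 5 pyrimidines was found in 4.21%, against 2.51% of all windows and 4.04% of lncRNA windows with a peak. All of these except CCAAT and the TATA box and pyrimidine motifs contain CpG and so depend on the CpG content described above. Among the printed windows, Dleu2 holds 6 copies of GGGCGG, overlapping ones included, and Snhg3 holds CTTCCGG, the reverse complement of CCGGAAG, just after its start, while 4930578M01Rik holds none of the motifs.

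The authors' table of start-site windows bound by both proteins lists 343 windows of 6940 whose transcripts are all noncoding and not microRNAs. Of these, 152 have a start named by a peak of the set and 191 do not. A coding start lies within 1000 bp for 175 of the 191 (91.6%) and for 69 of the 152 (45.4%). That table lists the starts of 146 of the 177 Jmjd2a peaks (82.5%, 76.1 to 87.8). Of the starts of the 174 Jmjd2c peaks it lists 92 (52.9%, 45.2 to 60.5). The same numbers, 146 and 92, had a peak of the other protein within 1000 bp, so these shares are not a separate result. The share of all near-start peaks listed there was not counted.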

How the data were processed

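Chromatin immunoprecipitation with sequencing was performed for Jmjd2a, Jmjd2c, H3K9me3 and H3K36me3 in OHT and Ctrl cells. The submitters' processing notes name build mm10 and the tools bedtools 2.25.0, SAMtools and Bowtie 0.12.7. Neither the labels nor the headers name a peak caller, its thresholds or the pooling of libraries. Per the file headers, the authors deposited for each protein peak positions in bp with other columns for the features under the peak, the nearest start sites and the distance, and a table of windows bound by both proteins. No value per library is used, so depth is unknown.

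Positions were read as counted from 0 and are printed counted from 1. The distance is from the peak's edge. Members were chosen by annotation, and members and lists were chosen with earlier results of these data known. Genes were matched by accession (171 of 177 Jmjd2a and 167 of 174 Jmjd2c peaks), else by symbol, to RefSeq on GRCm38.p6. Of 21031 curated coding genes, 4178 have no listed start there, so a distance to a coding start is to the nearest listed one. Named genes were the members of the fixed lists, the widest peaks, those near the limit, antisense genes with both proteins, Jmjd2a peaks without Jmjd2c and far genes with both. Not every gene that this rule names is reported here. The 8 printed windows and some coding neighbours, exceptions and coding genes were chosen as examples after their values were seen. Shares carry exact (Clopper-Pearson) 95% intervals, and no test between groups was made. The steps were tested on simulated data. Python 3.11.15, pandas 2.3.3 and scipy 1.17.1 were used.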

Additional observations from a re-analysis of the deposited data

How the results depend on the processing

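No value per library is used here, so no library could be left out, and OHT and Ctrl libraries could not be compared. No paired analysis was possible because the files hold no column per library, although the histone mark libraries share replicate numbers. Of 84 alternative values, 58 stayed inside the interval of the reported value or within 1.5 times the reported count. These include every value at a limit of 500 or 2000 bp, without the X and Y chromosomes, for peaks with no coding start within 1000 bp and for promoter windows under a peak. The other 26 came from 3 changes.

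Admitting sites where any rather than every transcript is noncoding gave 471 Jmjd2a and 771 Jmjd2c peaks. Coding starts then lay within 1000 bp of 79.2% of Jmjd2a and 80.9% of Jmjd2c peaks. Shared were 86.8% of Jmjd2a and 57.5% of Jmjd2c peaks, the start was covered by 69.6% of Jmjd2a and 92.3% of Jmjd2c peaks, and the median Jmjd2a peak was 810 bp wide and the median Jmjd2c peak 1453 bp. By gene, 471 had both proteins, 52 Jmjd2a alone and 299 Jmjd2c alone. These sites name mostly coding genes.

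The wider 50% of each list gave 73 Jmjd2a and 51 Jmjd2c peaks with median widths of 899 bp in the Jmjd2a list and 1632 bp in the Jmjd2c list, which the choice itself fixes. The start was covered by 74% of Jmjd2a and 92.2% of Jmjd2c peaks. Of all near-start peaks in that part, 85.6% of Jmjd2a and 98.2% of Jmjd2c peaks covered it. Coding starts lay near 37% of Jmjd2a and 19.6% of Jmjd2c peaks at noncoding starts. Sharing was 72.5% for Jmjd2c, above the 68.1% of near-start peaks in that part but within counting error of it (58.3 to 84.1). Both proteins were found at 38 genes and Jmjd2c alone at 31. Coding starts from the deposited files alone gave 35.6% for Jmjd2a and 13.2% for Jmjd2c, with fewer coding starts to find.

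Peak number, width and sharing depend on depth and on calling thresholds, and both are unknown here.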

Other observations

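Overlap was also counted by the class of the gene, with few peaks outside lncRNA genes. Jmjd2a peaks overlapped the other protein in 16 of 18 cases at pseudogenes (88.9%, interval 65.3 to 98.6), in 18 of 20 at noncoding transcripts of coding genes (90%, 68.3 to 98.8) and in 105 of 139 at lncRNA genes (75.5%, 67.5 to 82.4). Jmjd2c peaks did so in 13 of 21 cases at pseudogenes (61.9%, 38.4 to 81.9), in 10 of 17 at noncoding transcripts of coding genes (58.8%, 32.9 to 81.6) and in 57 of 134 at lncRNA genes (42.5%, 34 to 51.4). The intervals of the 3 classes overlap for either protein. Over all near-start peaks the shares were 86.9% for Jmjd2a and 61.6% for Jmjd2c. These lie inside the intervals of pseudogenes and of noncoding transcripts of coding genes, and above those of lncRNA genes. Pseudogenes with both proteins included H2-K2, in the major histocompatibility region, with Jmjd2a over 588 bp and Jmjd2c over 1380 bp, and the zinc finger pseudogene Zfp862-ps, with Jmjd2a over 705 bp and Jmjd2c over 926 bp. Reads of a pseudogene and its parent gene can be hard to place, and no label gives the mapping settings.

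Sharing was also counted by the distance of the peak to the start. Jmjd2a peaks that covered the start were shared in 81.7% of 93 cases (72.4 to 89), those 1 to 500 bp away in 79.5% of 73 (68.4 to 88) and those further away in 5 of 11 (45.5%, 16.7 to 76.6). Jmjd2c peaks over the start were shared in 54.8% of 135 cases (46 to 63.4), those 1 to 500 bp away in 6 of 34 (17.6%, 6.76 to 34.5) and those further away in 0 of 5, which allows a share of up to 52.2%. The other near-start peaks showed the same link between sharing and covering the start. There the start was covered by 95.2% of shared and 84.9% of unshared Jmjd2c peaks. For Jmjd2a it was covered by 68.4% of shared and 58.1% of unshared peaks. No test of these differences was made.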
